A study of Homo sapiens with 4 samples.

Results

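The response of DU145 cells to a plasmid carrying circ0003553 was described over all genes with enough counts to be read. A gene entered when its counts, summed over the circ0003553 and the control library of DU145, reached at least 50, and 17650 of the 35211 genes of the table did. This choice uses the depth of a gene and not its difference between the libraries. DU145 and PC3 are long-established lines from human prostate cancer, and the study transfected each of them with either of 2 plasmids. One plasmid was the negative control and the other overexpressed circ0003553, a circular RNA whose sample titles name the gene RCAN3. Each line and plasmid together formed a group of 1 library, 4 libraries in all, made by one protocol in which total RNA was depleted of ribosomal RNA and tagged with unique molecular identifiers. The labels give no dose, no time after transfection and no clone.

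With 1 library per group there is no replicate error. Every difference below is therefore a ratio between 1 circ0003553 library and 1 control library, with no test and no p-value. Ratios were scaled by TMM, a library-size correction that leaves most genes near 1. Each carries a 95% exact conditional binomial (Clopper-Pearson) interval that covers counting error only. Intervals were taken from halved counts, because low counts were mostly even, as they are when both reads of a pair are counted. Differences between separate transfections of the same plasmid were not measured. A gene was counted as higher or lower when its ratio reached 2-fold, or, as a milder limit, 1.5-fold.

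Transfected nucleic acid can be sensed inside a cell by the helicases RIG-I (gene DDX58) and MDA5 (gene IFIH1). These sensors signal to interferon regulatory factors, and secreted interferon then acts through the ISGF3 complex, which holds IRF9, on the interferon-stimulated response element (ISRE) of antiviral genes. A separate branch, the integrated stress response, lowers protein synthesis through phosphorylation of eIF2-alpha and raises ATF4 targets. NRF2 is the transcription factor that keeps antioxidant and NADPH-producing enzymes high, and it is held down by KEAP1. DU145 is used as a model of androgen-independent prostate cancer.

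Promoter sequence was read for the genes at the top of the DU145 response, because a shared element is visible in the letters themselves. The windows come from the RefSeq promoters of GRCh38.p14, each written 5′ to 3′ along the gene's own strand. Capitals mark the first match of the motif in the promoter, and 15 bases stand on either side of it. The first 5 hold the ISRE, searched as GAAANNGAAA on both strands, and the last 2 hold the CRE (TGACGTCA) and the AP-1 site (TGANTCA).
DDX60, chr4:168318816-168318855, minus strand: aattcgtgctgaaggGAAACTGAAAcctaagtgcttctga
ISG15, chr1:1013369-1013408, plus strand: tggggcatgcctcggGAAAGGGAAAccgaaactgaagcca
IFI6, chr1:27672324-27672363, minus strand: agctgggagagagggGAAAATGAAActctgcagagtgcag
IFIT3, chr10:89327826-89327865, plus strand: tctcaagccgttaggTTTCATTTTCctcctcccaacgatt
CD274, chr9:5450319-5450358, plus strand: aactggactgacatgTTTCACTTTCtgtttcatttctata
PPP1R15A, chr19:48872348-48872385, plus strand: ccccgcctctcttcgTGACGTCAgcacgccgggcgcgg
MT2A, chr16:56608465-56608501, plus strand: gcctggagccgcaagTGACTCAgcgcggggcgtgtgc

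The first ISRE match of DDX60 began 88 bases before the RefSeq gene start, that of ISG15 113 bases before it and that of IFI6 156 bases before it. DDX60 and ISG15 held 2 matches each and IFI6 held 3. Of the 78 genes at least 2-fold higher with 200 or more counts, 51 matched a promoter, and 15 of these (29.41%) held an ISRE. The share was 2.835% over the 11183 promoters of all genes tested and 3.648% over all 27305 promoters in the reference. None of the 19 matched promoters among the genes at least 2-fold lower held one. The AP-1 site stood in 9 of the 51 (17.65%), in 1 of the 19, and in 4.623% of the promoters of genes tested. The CRE stood in 2 of the 51 (3.922%), in 0 of the 19, and in 3.139% of the promoters of genes tested. Its share among the higher genes was thus near that of all genes tested. A match in a window of 300 bases describes the letters there and says nothing of whether a factor binds them.

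The label was checked first. RCAN3 (hg38 chromosome 1, 24502351 to 24541040, plus strand) had 639 counts in the DU145 control library and 816 in the circ0003553 library, or 2.37 and 3.16 RPKM. The ratio was 1.37 (interval 1.18 to 1.59), and PC3 gave 2.63 (2.40 to 2.88). In DU145 RCAN3 stayed under the 1.5-fold limit, and 17.9% of all genes tested there had an interval wholly above 1. The DU145 value is therefore not unusual among genes and does not settle the label. In PC3 RCAN3 was past 2-fold, where 0.744% of 15868 genes were higher. Gene-level counts hold linear and circular RNA together, so no value is given for circ0003553 itself. A gene on the other strand overlaps an exon of RCAN3, and its reads may be included. RCAN1, a paralog that also binds calcineurin, had a ratio of 1.07 (0.952 to 1.20) on 1175 and 1171 counts. RCAN2 had 18 and 6 counts and did not enter. Of 17 genes of the calcineurin and NFAT list, 1 was at least 2-fold higher and 0 lower, where 1.14% and 1.17% of all genes were. It was NFATC2, a calcineurin-dependent transcription factor, at 378 and 803 counts (2.28; 1.92 to 2.73).

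The identity of the line was checked by 1 marker lost in PC3. CTNNA1, the alpha-catenin gene that PC3 has lost, had 15074 and 15131 counts in DU145 against 139 and 212 in PC3. Of the 4 epithelial markers, KRT8, KRT18 and EPCAM had ratios from 1.16 to 1.17 and CDH1 was lower, at 4821 and 2478 counts (0.552). Of 6 endothelial markers, none reached 50 counts in DU145. The leukocyte gene PTPRC was at 0 in both libraries, and CD68, which epithelial lines also express, was the 1 leukocyte marker with 50 counts. Of the 6 fibroblast and smooth muscle markers, DCN and LUM were at 0. COL1A1, at 216 and 124 counts, and ACTA2, at 63 and 69, were the 2 with 50 counts. The summed level of the 6 was 7.04 CPM in the control library and 5.61 CPM with circ0003553.

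Most genes differed little. The middle 50% of log2 ratios lay between -0.18 and 0.18 in DU145, a wider spread than the -0.11 to 0.14 seen in PC3 over genes with 50 counts in both pairs. At 2-fold, 202 of 17650 genes were higher with circ0003553 (1.14%) and 206 were lower (1.17%). At 1.5-fold, 829 were higher (4.7%) and 893 lower (5.06%). Ratios were above 1 in 50.7% of genes and below 1 in 49.3%. The even split at 2-fold came from genes with few counts. Of the 202 higher genes 124 had under 200 counts, and of the 206 lower genes 174 did. At the entry limit, 35 of 269 genes with 50 to 54 counts were at least 2-fold apart in either direction, and 52 of 274 with 45 to 49 counts, which did not enter. Among the 13786 genes with 200 counts or more, 78 were at least 2-fold higher (0.566%) and 32 at least 2-fold lower (0.232%). The interval lay wholly past 2-fold for 37 higher and 8 lower genes.

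Membership of the gene lists was counted for the genes past 2-fold with 200 counts or more. Of those 78 deeper genes, 21 belonged to the lists of interferon-stimulated effectors, nucleic acid sensors, or interferon signalling, and 40 to any of the lists used. Of the 32 lower genes, 0 belonged to the interferon lists and 1 to any list. The share of listed genes among all 13786 genes with 200 counts was not counted, so neither side is set against it. These lists were drawn up with earlier results of these data known, so the overlap describes the genes and is not independent evidence.

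**Figure D1:**
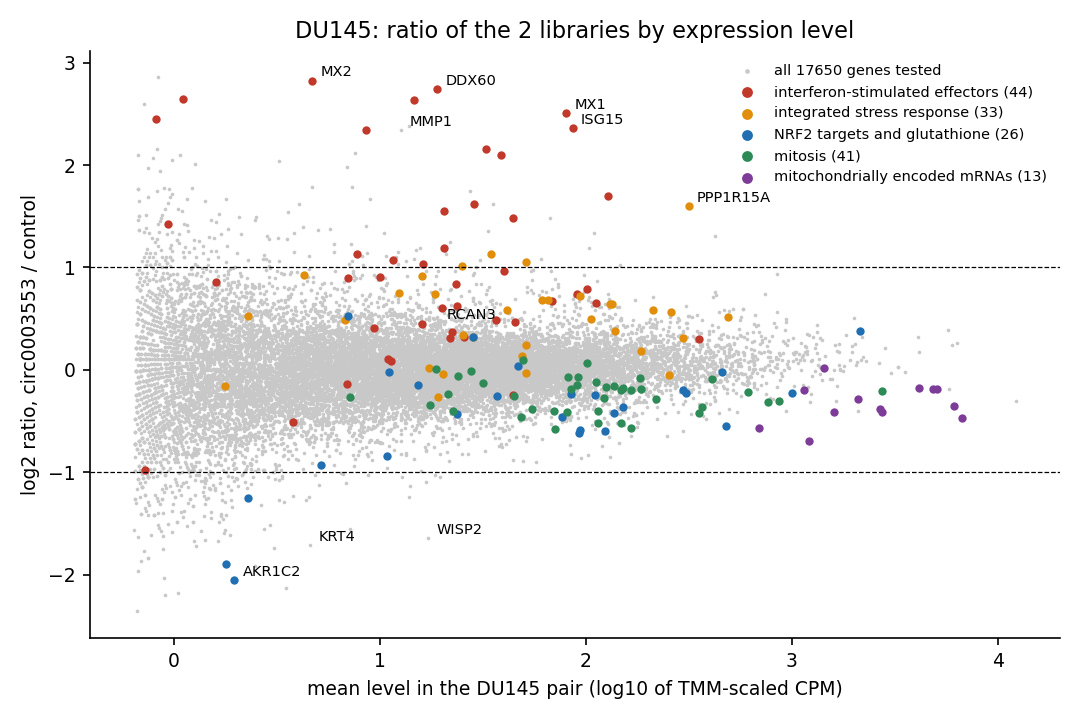
Log2 ratio of the circ0003553 to the control library of DU145 (vertical axis) against the mean level of the pair (horizontal axis, log10 of TMM-scaled CPM) for 17650 genes, 1 library per side, with 5 gene lists in colour and dashed lines at 2-fold. Interferon-stimulated effectors (red) reach the top across all levels, NRF2 targets (blue) reach the bottom at low levels, and mitosis genes (green) and mitochondrially encoded mRNAs (purple) lie mostly below 0 within the 2-fold lines.

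Of the 15 genes with the highest ratios among those with 200 counts, 8 were listed interferon-stimulated effectors. Of 52 interferon-stimulated effectors listed, 44 reached 50 counts, and 19 of these were at least 2-fold higher and 0 lower, where 1.14% of all genes were higher. At 1.5-fold the counts were 30 and 1, where 4.7% and 5.06% of all genes were higher and lower. The median log2 ratio was 0.88 against 0.0046 over all genes. Ratios were above 1 in 40 and below 1 in 4, where 50.7% and 49.3% of all genes were. The 4 were SAMD9L, IFITM2, LY6E and UBE2L6. SAMD9L was the lowest, with 38 and 18 counts (0.508). MX2, a GTPase that blocks retroviral nuclear entry, had 46 counts in the control library and 304 with circ0003553, a ratio of 7.09 (4.56 to 11.5), the highest among genes with 200 counts. IFI6, a mitochondrial and endoplasmic reticulum protein that restricts flaviviruses, had 111 and 526 counts (5.09; 3.76 to 6.85). Both intervals lay above 2-fold.

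The 8 effectors under the minimum were given by their counts alone. RSAD2, the antiviral enzyme viperin, had 0 counts in the control library and 18 with circ0003553, OAS1 had 5 and 41, and IFI44L had 2 and 24. TRIM22, a restriction factor, had 16 in each. Because the minimum is on the sum, a gene silent in the control can enter through the other library, and the share of effectors past 2-fold is a description and not support.

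The level of these genes differed widely. Per length, ISG15, a ubiquitin-like protein attached to newly made proteins, had 31.1 RPKM in the control library and 155 with circ0003553. MX1, a GTPase against RNA viruses, had 2.886 and 15.999 RPKM. DDX60, a helicase linked to RIG-I signalling, had 0.763 and 4.96 RPKM. Their counts were 1116 and 5336, 946 and 5026, and 196 and 1221 in the control and circ0003553 libraries, so the ratio of 5.13 for ISG15 rests on far more counts than that of 6.69 for DDX60. ISG15 shares exon bases with a neighbouring gene of the table, and MX1 shares them with AP001610.5 on the other strand, whose ratio of 5.21 cannot be read apart from it.

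The IFIT proteins bind RNA and complex with one another. IFIT3 had 2408 and 7260 counts (3.24; 3.03 to 3.46), IFIT1 had 554 and 1587 (3.07; 2.68 to 3.54) and IFIT2, which shares exon bases with LIPA, had 582 and 2322 (4.28; 3.76 to 4.89). IFIT5 was nearer to 1 at 1.33 (1.07 to 1.65). OAS3, an oligoadenylate synthetase, had 925 and 2417 counts (2.80; 2.52 to 3.13). ISG20, an exonuclease of RNA, had 411 and 1123 counts (2.93; 2.49 to 3.45). HERC5, the ligase that attaches ISG15, reached 2.28 (1.95 to 2.66) and its relative HERC6 reached 2.04 (1.72 to 2.42). ZC3HAV1, which binds CpG-rich viral RNA, stayed under 2-fold in DU145 at 1.67 (1.56 to 1.79) on 2690 and 4183 counts, against 5.64 (5.23 to 6.10) in PC3.

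Sensors and transcription factors differed less as a group. Of 15 RNA and DNA sensors and adaptors tested, 4 were at least 2-fold higher and 0 lower, where 1.14% and 1.17% of all genes were. The 4 were DHX58, the RIG-I-like regulator LGP2, at 130 and 419 counts (3.46; 2.61 to 4.65), IFIH1 at 296 and 581 (2.11; 1.73 to 2.59), IFI16, a DNA sensor, at 267 and 538 (2.16; 1.74 to 2.67), and TNFAIP3. IFIH1 is also in the list of interferon-stimulated effectors and TNFAIP3 is also in the NF-kB list, so these counts are not separate. DDX58 lay just under the limit and was not counted, with 770 and 1435 counts and a ratio of 1.99999 (1.77 to 2.27). DHX58 had 0 counts in both PC3 libraries, so PC3 gives no ratio.

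Of 23 genes of interferon signalling, 2 were at least 2-fold higher and 0 lower, where 1.14% and 1.17% of all genes were. Both of the 2 act directly on interferon-responsive promoters. IRF7, which amplifies interferon transcription, had 83 and 267 counts (3.45; 2.40 to 4.97). IRF9, the DNA-binding part of the ISGF3 complex, had 499 and 1564 counts (3.36; 2.91 to 3.89). IRF9 shares exon bases with a neighbouring gene of the table, whose own ratio was 2.57. In this list 11 ratios were above 1 and 12 below, and the median log2 ratio was -0.01, or 0.13 without members that share exon bases with another gene.

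Interferon genes themselves had few counts, and none of those in the table reached 50. IFNL1, IFNL2 and IFNL3 had 2, 0 and 0 counts in the DU145 control and 4, 4 and 2 in the circ0003553 library, where 3 counts is the limit that a count of 0 allows, 0.0758 CPM in the control library. IFNE, an epithelial interferon, had 17 and 8. Among 14 cytokines tested, CCL5, a T-cell chemokine, had 12 and 38 counts (3.40; 1.305 to 10.4), and IL24, an IL-10 family cytokine, had 214 and 440 (2.21; 1.74 to 2.81). CXCL1, a neutrophil chemokine, was lower at 247 and 129 counts (0.560; 0.410 to 0.765).

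Antigen presentation genes were near 1. Of 22 MHC class I genes, 0 passed 1.5-fold in either direction, where 4.7% and 5.06% of all genes were higher and lower. The median log2 ratio was 0.05 (0.24 without members that share exon bases), against 0.29 in PC3. The highest were HLA-C at 1.45 (1.42 to 1.49) and HLA-B at 1.40 (1.35 to 1.44), on 21425 and 29009 and on 12055 and 15690 counts. PSMB9, an immunoproteasome subunit, was at 0.751 (0.599 to 0.946). CD274, the gene of the immune checkpoint ligand PD-L1 whose ISRE is printed above, was chosen after its values were seen. It had 516 and 1143 counts (2.38; 2.05 to 2.77), against 0.930 (0.791 to 1.09) in PC3.

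**Figure D2:**
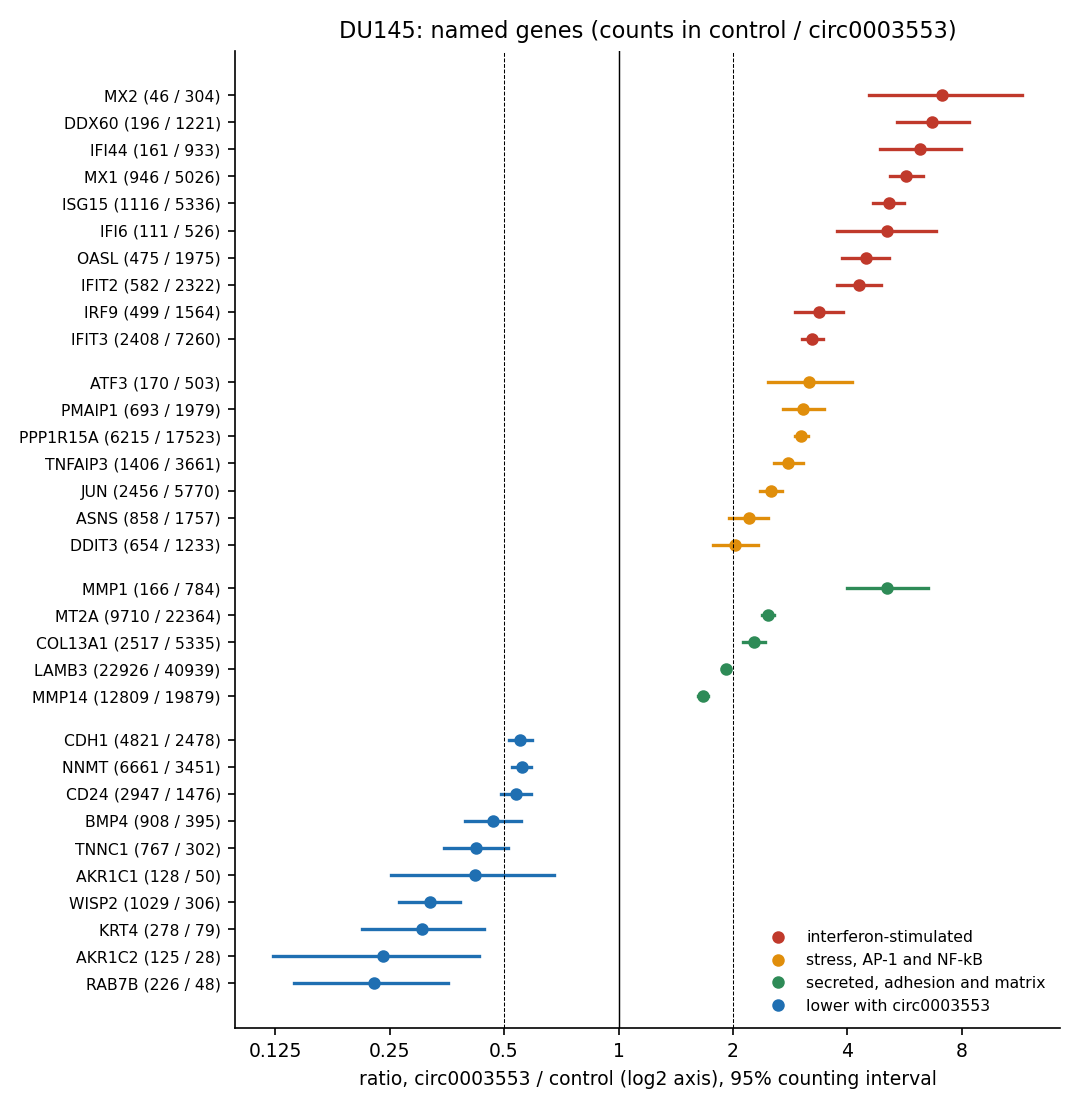
Ratio of the circ0003553 to the control library of DU145 for 32 named genes (horizontal log2 axis), with the 95% counting interval as a bar and the counts of both libraries beside each name. Antiviral genes reach 7.09 for MX2, stress and matrix genes lie mostly between 1.5 and 3.2 with MMP1 at 5.07, and the lower genes reach 0.228 for RAB7B.

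Many genes of the integrated stress response were higher in DU145, and PC3 values are set beside them with no test of the difference. Of 33 tested, 4 were at least 2-fold higher and 0 lower, where 1.14% and 1.17% of all genes were. At 1.5-fold 13 were higher and 0 lower, where 4.7% and 5.06% of all genes were. The median log2 ratio was 0.52. Over the 31 members with 50 counts in both pairs it was 0.57 in DU145 and 0.07 in PC3. PPP1R15A, the phosphatase subunit GADD34 that reverses the eIF2-alpha block, had 6215 counts in the control library and 17523 with circ0003553, a ratio of 3.03 (2.90 to 3.15) at a high level. ASNS, asparagine synthetase, had 858 and 1757 counts (2.20; 1.96 to 2.47). DDIT3, the factor CHOP, had 654 and 1233 (2.02; 1.77 to 2.32) and shares exon bases with MARS.

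The unfolded protein response list stayed near 1. Of its 20 genes 0 passed 1.5-fold in either direction, where 4.7% and 5.06% of all genes were higher and lower. The median log2 ratio was 0.00. Intervals lay wholly above 1 for 6 and wholly below for 7, where 17.9% and 15% of all genes did. Of the 18 heat shock genes, 0 passed 1.5-fold in either direction as well. Their median was -0.01, with 6 intervals wholly above 1 and 9 wholly below. XBP1, the transcription factor spliced by IRE1, was at 1.32 (1.23 to 1.42), and MANF, a secreted endoplasmic reticulum protein, at 0.800 (0.740 to 0.865).

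Several immediate early and MAPK feedback genes were also higher. Of 24 immediate early transcription factors, 4 were at least 2-fold higher and 1 lower, where 1.14% and 1.17% of all genes were. JUN, an AP-1 subunit, had 2456 and 5770 counts (2.52; 2.36 to 2.70), against 0.976 (0.928 to 1.03) in PC3. ATF3, a stress-induced repressor of the same family, had 170 and 503 (3.18; 2.48 to 4.12) and was higher in PC3 too at 2.75 (2.15 to 3.53). MAFF, a small MAF protein, was at 2.10 (1.86 to 2.38). NR4A3, an orphan nuclear receptor, was the lower one at 73 and 32 counts (0.470; 0.241 to 0.855).

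MAPK feedback regulators dampen ERK signalling and serve as its readout. Of 21, 3 were at least 2-fold higher and 0 lower, where 1.14% and 1.17% of all genes were. At 1.5-fold 10 were higher, where 4.7% of all genes were. ETV4, an ERK-induced ETS factor, had 300 and 600 counts (2.15; 1.76 to 2.63), and SPRY4, an inhibitor of receptor signalling, had 215 and 408 (2.04; 1.598 to 2.58). DUSP6, the ERK phosphatase, was at 1.57 (1.32 to 1.86), against 0.808 (0.731 to 0.892) in PC3. Over 20 members counted in both pairs the median log2 ratio was 0.57 in DU145 and 0.09 in PC3. Of 12 EGFR ligands and receptors, 7 had ratios above 1 and 5 below, and the median log2 ratio was 0.10. At 1.5-fold 1 was higher and 1 lower, where 4.7% and 5.06% of all genes were. The higher one was HBEGF, which activates EGFR, with 370 and 650 counts (1.89; 1.57 to 2.27), against 0.732 (0.635 to 0.843) in PC3. The lower one was EGF, with 44 and 20 counts (0.488), also past 2-fold.

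In the NF-kB, p53 and metal response lists a few genes were past 2-fold. TNFAIP3, the deubiquitinase A20 that limits NF-kB, had 1406 and 3661 counts (2.79; 2.56 to 3.05). It was the 1 of 20 NF-kB genes at least 2-fold higher, and 0 were lower, where 1.14% and 1.17% of all genes were. Of 35 p53 targets and apoptosis genes, 3 were at least 2-fold higher and 0 lower, where 1.14% and 1.17% of all genes were. PMAIP1, the BH3-only protein NOXA, had 693 and 1979 counts (3.06; 2.71 to 3.47) and was also higher in PC3 at 3.96 (3.49 to 4.48). The others past 2-fold had few counts, BCL2A1 with 22 and 60 and GDF15 with 20 and 38. The p53 target CDKN1A, a cell cycle inhibitor, was at 1.79 (1.51 to 2.11). The p53 targets TP53I3, at 478 and 340, and ZMAT3, at 544 and 492, had fewer counts with circ0003553. In this list 19 ratios were above 1 and 16 below. The median log2 ratio was 0.06, or -0.03 without members that share exon bases with another gene.

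Metallothioneins bind zinc and copper. Of 9 metallothionein and zinc transport genes tested, 2 were at least 2-fold higher and 0 lower, where 1.14% and 1.17% of all genes were. MT2A had 9710 counts in the control library and 22364 with circ0003553, a ratio of 2.47 (2.39 to 2.56), with PC3 at 1.48 (1.43 to 1.53). MT1E had 236 and 554 counts in DU145 (2.52; 2.02 to 3.15) and 0 and 2 in PC3, where no ratio is given. Other metallothioneins differed less in DU145, with 34 and 37 counts for MT1X and 63 and 80 for MT1A. MT1F, at 15 and 15, and MT1M, at 18 and 14, did not enter. SLC30A1, a zinc exporter, was at 1.87 (1.25 to 2.76), and SLC39A10, a zinc importer, at 0.604 (0.545 to 0.670). Metallothionein copies are near-identical, and the counting of reads between them is not given in the sources used here.

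NRF2 targets were the list with the most members past 2-fold on the lower side. Of 26, 3 were at least 2-fold lower and 0 higher, where 1.17% of all genes were lower. At 1.5-fold 8 were lower and 0 higher, where 5.06% and 4.7% of all genes were. Ratios were below 1 in 22 of 26, where 49.3% of all genes were. The median log2 ratio was -0.31, against 0.08 for the same genes in PC3. AKR1C2, an aldo-keto reductase that inactivates dihydrotestosterone, had 125 counts in the control library and 28 with circ0003553 (0.240; 0.123 to 0.430). AKR1B10, a reductase of retinal, had 112 and 28 (0.268; 0.138 to 0.488), and AKR1C1 had 128 and 50 (0.419; 0.253 to 0.675). AKR1C1 and AKR1C2 are near-identical in sequence, so reads may be divided between them.

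The deeper members of that list were lower by less. GSR, glutathione reductase, had 4434 and 2691 counts (0.651; 0.608 to 0.698). NQO1, a quinone reductase, had 22542 and 14361 (0.684; 0.664 to 0.704), and FTL, the ferritin light chain, 4463 and 2759 (0.663; 0.620 to 0.710). TXNRD1, thioredoxin reductase, went against the list at 1.302 (1.28 to 1.32) on 73559 and 89222 counts. The antioxidant response element, searched as TGACNNNGCA on both strands, stood in 1 of 21 matched promoters of the list (4.762%), against 2.924% of all genes tested.

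Mitosis genes were mostly lower, by a small amount. Of 41 tested, 0 passed 1.5-fold, where 4.7% and 5.06% of all genes were higher and lower. Ratios were below 1 in 38. In 32 the counting interval excluded 1 on the lower side, while 0 excluded it on the higher side. Over all genes tested, 49.3% of ratios were below 1 and 2655 intervals (15%) lay wholly below 1, and among the 6043 genes with 2000 counts these shares were 43.5% and 23.1%. The median log2 ratio was -0.22, against -0.03 in PC3. CDC25B, the phosphatase that starts mitosis, had 3364 and 2104 counts (0.671; 0.621 to 0.725). CCNB1, cyclin B1, had 6878 and 4473 (0.698; 0.662 to 0.736), and its kinase CDK1 had 5325 and 3456 (0.697; 0.655 to 0.740). The list of G1/S and DNA replication gave other values: of 34, 14 were below 1 and the median was 0.05, with MCM2, a replicative helicase subunit, at 1.33 (1.27 to 1.39). In bulk RNA, fewer cells in mitosis and less of these mRNAs per cell cannot be told apart.

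Lipid synthesis genes showed a similar small displacement. Of 33 genes of cholesterol and fatty acid synthesis, 28 had ratios below 1, where 49.3% of all genes did. At 1.5-fold 0 were higher and 0 lower, where 4.7% and 5.06% of all genes were. The median log2 ratio was -0.18. In the 32 counted in both pairs it was -0.19 in DU145 and 0.09 in PC3. SREBF1, the master regulator of fatty acid synthesis, had 1205 and 756 counts (0.673; 0.590 to 0.766), and SCD, the stearoyl-CoA desaturase, had 20192 and 14049 (0.747; 0.724 to 0.770). In ribosome biogenesis the displacement was upward, with 29 of 31 ratios above 1, where 50.7% of all genes were, and a median of 0.21. RRP12, a ribosome export factor, was at 1.42 (1.34 to 1.49), and NOP2, an rRNA methyltransferase, at 1.38 (1.32 to 1.44). The 76 cytosolic ribosomal proteins had a median of -0.03.

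Mitochondrially encoded mRNAs had ratios below 1 in 12 of 13 cases, where 49.3% of all genes did. Their medians were -0.35 (DU145) and -0.17 (PC3) on the log2 scale. MT-CO3, a cytochrome oxidase subunit, had 307328 and 207352 counts (0.724; 0.718 to 0.730), and MT-ATP8, an ATP synthase subunit, was the 1 past 1.5-fold at 0.616 (0.605 to 0.628). MT-ATP8 overlaps MT-ATP6. Mitochondrially encoded genes took 6.28% of all counts of the DU145 control and 4.963% with circ0003553, so the list and this share are the same measurement. Nuclear genes of the respiratory chain had a median of -0.06 over 36 members.

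Adhesion, matrix and protease genes held several of the most abundant higher genes. LAMB3, the laminin-332 beta chain, had 22926 and 40939 counts (1.92; 1.87 to 1.96), against 1.02 (0.994 to 1.04) in PC3. COL13A1, a transmembrane collagen, had 2517 and 5335 (2.27; 2.13 to 2.43), against 0.815 (0.793 to 0.838). MMP1, interstitial collagenase, had 166 and 784 (5.07; 3.99 to 6.50), against 1.19 (0.684 to 2.09). MMP1 shares exon bases with WTAPP1, which gave the same ratio of 5.07, and the reads cannot be assigned to one of them.

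The plasminogen activation pair stayed under 2-fold. PLAU, urokinase, had 14767 and 20673 counts (1.50; 1.46 to 1.55) and its receptor PLAUR had 12479 and 18983 (1.63; 1.58 to 1.69). MMP14, a membrane collagenase, had 12809 and 19879 (1.67; 1.61 to 1.72). Of 19 matrix proteases 5 were at least 1.5-fold higher and 0 lower, where 4.7% and 5.06% of all genes were. The integrin subunits ITGA2 and ITGA6 were at 1.79 (1.58 to 2.03) and 1.53 (1.45 to 1.61).

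Epithelial and mesenchymal lists had median log2 ratios of 0.16 and 0.10. CDH1, E-cadherin, had 4821 and 2478 counts (0.552; 0.515 to 0.591), and CXADR, a tight junction receptor, 1956 and 1084 (0.595; 0.534 to 0.661). SNAI2, a repressor of epithelial genes, had 74 and 168 (2.44; 1.64 to 3.69). CLDN7, a tight junction protein, was higher at 1.87 (1.36 to 2.60), as was KRT17, a basal keratin, at 2.09 (1.39 to 3.19). Of 33 epithelial genes 3 were at least 1.5-fold higher and 2 lower, where 4.7% and 5.06% of all genes were. In the mesenchymal list NT5E, the ecto-nucleotidase CD73, was at 1.90 (1.77 to 2.03).

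Of 19 angiogenic factors, 13 had ratios above 1, where 50.7% of all genes did. At 1.5-fold 6 were higher and 0 lower, where 4.7% and 5.06% of all genes were. FGF1 had 20 and 75 counts (4.02; 1.99 to 9.18), PDGFA was at 1.91 (1.51 to 2.43) and VEGFC at 1.80 (1.34 to 2.42). The YAP targets gave a median of 0.05, although ANKRD1, a stretch-responsive nuclear protein, had 1809 and 3295 counts (1.95; 1.80 to 2.12). Of 13 prostate lineage genes, 1 was at least 1.5-fold higher and 1 lower, where 4.7% and 5.06% of all genes were. The higher one was SOX9 at 1.64 (1.37 to 1.96), and the lower one was PER1, a clock gene, at 0.562 (0.393 to 0.804).

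Outside the lists, HDAC9, a class IIa deacetylase, had 110 and 406 counts (3.96; 2.93 to 5.44), and IL1RL1, the IL-33 receptor, 50 and 192 (4.12; 2.63 to 6.68). IL23A, a cytokine subunit, had 92 and 225 (2.62; 1.86 to 3.80). SPHK1, the kinase that makes sphingosine-1-phosphate, had 126 and 304 (2.59; 1.92 to 3.53). In PC3 HDAC9 was higher too, at 1.67 (1.47 to 1.89), and the ratios of IL1RL1, IL23A and SPHK1 were 0.888, 0.804 and 0.812. UPP1, uridine phosphorylase, chosen after its values were seen, had 3832 and 7259 counts (2.03; 1.92 to 2.15).

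The lower genes with 200 counts were a mixed group. RAB7B, a GTPase of lysosomal transport, had the smallest ratio, with 226 counts in the control library and 48 with circ0003553 (0.228; 0.140 to 0.356). WISP2, a secreted CCN protein, had 1029 and 306 (0.319; 0.264 to 0.383), KRT4, a keratin of stratified epithelium, 278 and 79 (0.305; 0.212 to 0.442), and TNNC1, troponin C, 767 and 302 (0.423; 0.347 to 0.511). These 4 had at most 23 counts in any PC3 library. KRT4 had 2 and 23 there, a ratio of 9.64 in the other direction with a very wide interval (1.49 to 430.1), and the intervals of WISP2 and TNNC1 in PC3 included 1.

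Other lower genes had ratios nearer to 1. NNMT, which methylates nicotinamide, had 6661 and 3451 counts (0.556; 0.524 to 0.590). CD24, a surface glycoprotein, had 2947 and 1476 (0.537; 0.491 to 0.587). ARRDC3, an arrestin-domain protein, had 766 and 325 (0.455; 0.378 to 0.550). ELF3, an epithelial ETS factor, and BMP4, a secreted morphogen, were at 0.491 (0.417 to 0.576) and 0.467 (0.394 to 0.554). ELF3 was chosen after its values were seen and shares exon bases with RP11-510N19.5, which was also at least 2-fold lower at 0.460.

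Processed pseudogenes, reverse-transcribed copies of mRNAs, stood apart from protein-coding genes on the lower side. Of 479 tested, 29 were at least 2-fold lower and 1 higher, 6.054% against 0.8559% of protein-coding genes lower. Their median log2 ratio was -0.26, against 0.01 for 12735 protein-coding genes, and -0.20 in PC3. Among genes under 500 counts the counts were 29 lower and 1 higher of 391 pseudogenes and 98 and 80 of 3217 protein-coding genes. HSP90AA2P had 2270 and 1146 counts (0.542; 0.489 to 0.5996), while its parent HSP90AA1 was at 0.880 (0.873 to 0.887). Reads of such copies cannot be told apart from those of the parent gene where the sequence is shared. With the genes in 10 classes of length, the median log2 ratio ran from -0.04 in the shortest to 0.03 in the longest class, and the part of length in the pseudogene result was not tested.

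**Figure D3:**
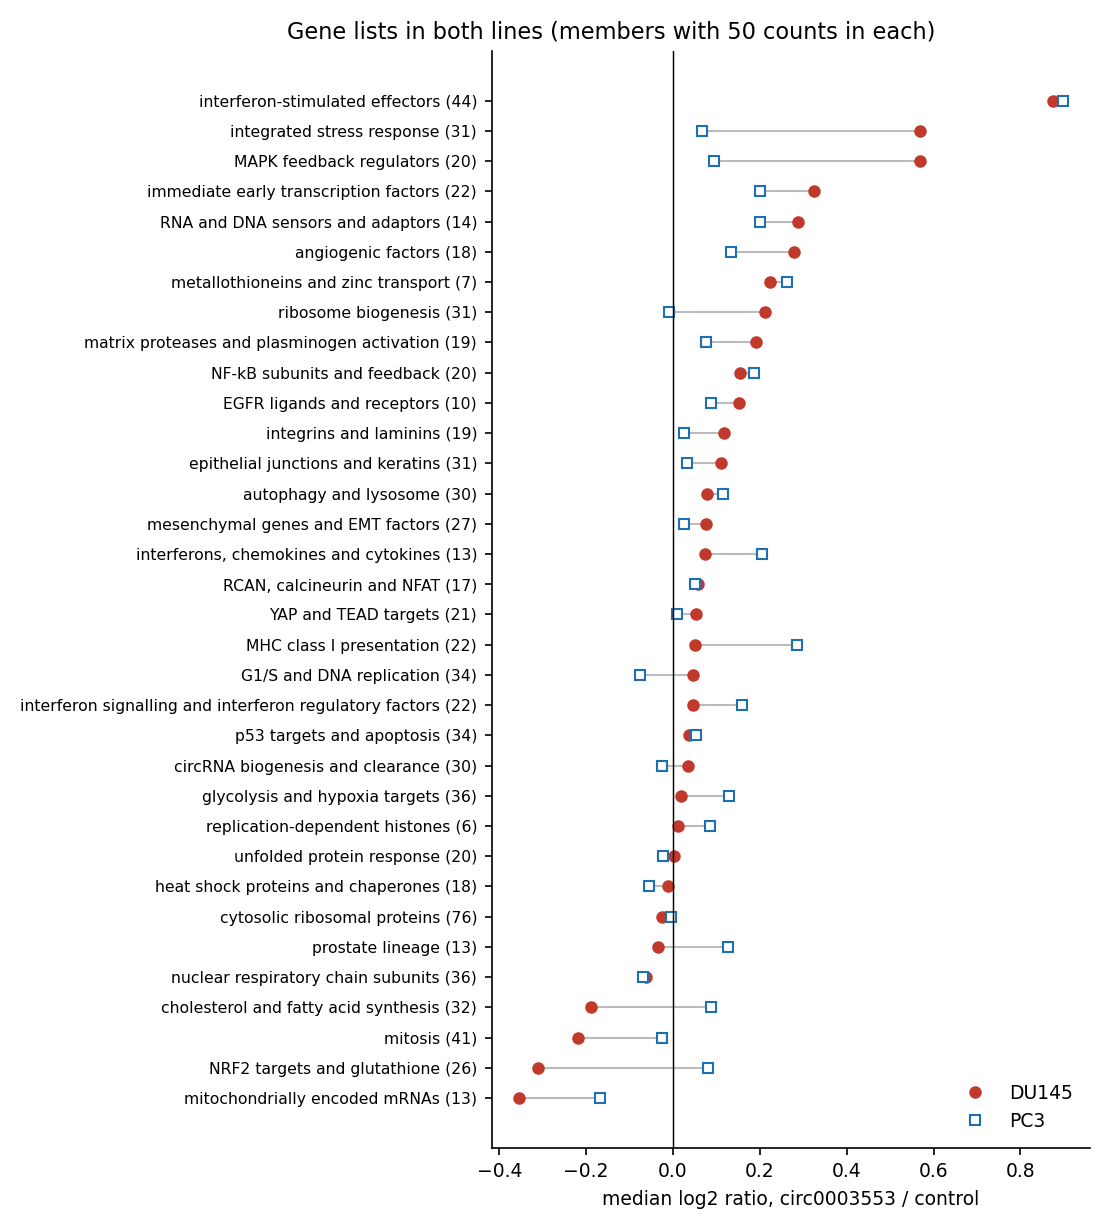
Median log2 ratio of circ0003553 to control for 34 gene lists over members with 50 counts in both pairs (number in brackets), DU145 as filled circles and PC3 as open squares, 1 library per group. Interferon-stimulated effectors stand at 0.88 and 0.90, and the integrated stress response and MAPK feedback lists stand at 0.57 in DU145 beside 0.07 and 0.09 in PC3.

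The 2 lines were set side by side without a test, since 1 library per group leaves no error for the difference. Of the 202 genes higher in DU145, 143 had 50 counts in the PC3 pair, and 28 of them (19.58%) were at least 2-fold higher there and 0 lower, where 0.744% of 15868 genes were higher in PC3. These 28 were 23.73% of the 118 genes higher in PC3. Of the 206 lower genes, 130 were counted in PC3, and 1 (0.7692%) was at least 2-fold lower there and 3 were higher, where 0.233% were lower in PC3. The median log2 ratio in PC3 was 0.24 for the higher and -0.01 for the lower genes.

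Across 12423 genes with 200 counts in each line, the log2 ratios correlated with Pearson's r of 0.283 and Spearman's rho of 0.2028. This describes genes of the same 4 libraries and not independent replicates. Among these genes, the 10 with the largest ratio in both lines, by the smaller of the pair, were DDX60, IFI44, MX1, ISG15, OASL, IFIT2, IFIT3, IFIT1, PMAIP1 and ISG20, of which PMAIP1 is the one outside the interferon lists. MX2, with 24 and 115 counts in PC3, was under the 200 counts this rule asks for, and its PC3 ratio was 4.02 (2.15 to 8.29). On the lower side the same rule named genes with DU145 ratios from 0.547 to 0.711. All of those 10 but OMA1, GTF2H2B and RP11-54D18.4 are annotated as processed pseudogenes, and the first was FABP5P2, at 0.615 (0.448 to 0.837) in DU145 and 0.596 (0.512 to 0.694) in PC3. OASL and IFIT2 had larger ratios in PC3, at 18.8 (15.7 to 22.6) and 12.6 (10.6 to 15.1), than in DU145, at 4.46 (3.86 to 5.15) and 4.28 (3.76 to 4.89).

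**Figure D4:**
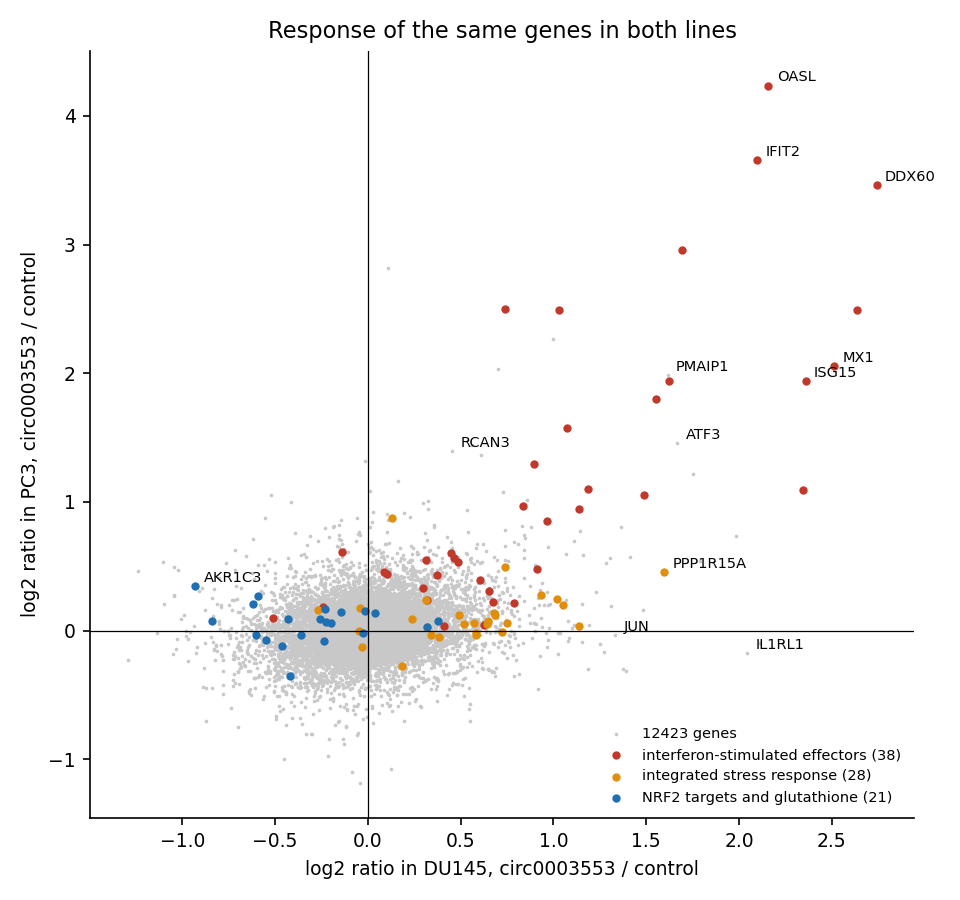
Log2 ratio of circ0003553 to control in PC3 (vertical axis) against DU145 (horizontal axis) for 12423 genes with 200 counts in each line, 1 library per group, with 3 gene lists in colour. Interferon-stimulated effectors run to the upper right, whereas JUN and IL1RL1 lie far right near 0 in PC3, and NRF2 targets lie mostly left of 0.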

How the data were processed

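RNA of 4 libraries, 1 per line and plasmid, had been sequenced after ribosomal RNA depletion. Per the labels' protocols, TRIzol was used for extraction and DNase I for removal of DNA, 2 µg of RNA went into each strand-specific library with identifiers of 8 bases, and reads were paired, of 150 bases. The authors deposited, for each gene, a whole-number count of reads and an RPKM, which equals the count divided by gene length and library total. The submitters' processing notes list Trimmomatic 0.36, Subread 1.5.1, featureCounts, edgeR 3.12.1 and hg38. Not given in the sources used here are the aligner, the strand setting and any collapsing of identifiers. Columns were matched by name, NC to the control and RCAN3 to circ0003553.

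Totals ran from 33438509 to 39488890 counts, and 3 counts corresponded to 0.07575 to 0.09254 CPM. Genes contained in another gene on the other strand had a read density of 0.649 of that gene, and on the same strand 0.495, so the counts did not keep the strands of overlapping genes apart. GC content moved the median log2 ratio by class from -0.04 to 0.04 in DU145.

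Scaling factors came from TMM over all 4 libraries (edgeR 4.0.16, R 4.3.3), and intervals from halved counts (scipy 1.17.1, Python 3.11.15). No floor of 3 counts was needed for the genes past 2-fold, as none had a library at 0. Ratios and intervals were checked on simulated read pairs, each counted as 2 and with counting error only. The check does not cover odd counts or differences between transfections. RPKM is used only for levels between genes. Biotypes came from GENCODE release 29 by name, for 14524 of the genes tested. Promoters were matched by symbol or synonym for 11275 of 17650 genes, which share 11183 promoters.

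The gene lists (34, and 7 of markers, holding 1010 entries of which 997 were found) and the members were chosen with earlier results of these data known. The text names RCAN3 and its paralogs, the 15 highest and 15 lowest ratios from 200 counts upward, the 10 highest and lowest with 2000, the 8 largest gains and losses in CPM, up to 6 members of each list and any past 2-fold, and the genes most alike or different between lines. Others are said to be chosen after their values were seen. Alternatives were scaling by total counts, TMM over the DU145 pair, DESeq2 1.42.0 size factors, halved counts, a prior count of 2, other minimum counts, genes without shared exon bases, intervals wholly past 2-fold, and GC-corrected ratios. Some listed genes are not reported here.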

Additional observations from a re-analysis of the deposited data

Results flagged for a closer look

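Of 15868 genes with 50 counts in both pairs, 329 had an interval above 1 in DU145 and below 1 in PC3, and 205 the reverse. In 3 of them the ratio was also at least 2-fold from 1 in DU145 and at least 1.5-fold from 1 in PC3. The difference between lines was not tested. BCL2A1, an anti-apoptotic BCL2 relative, had 22 and 60 counts in the control and circ0003553 libraries of DU145 and 790 and 602 in those of PC3, so its log2 ratio was 2.20 higher in DU145. IER5L, a relative of the immediate early gene IER5, had 422 and 134 counts in the DU145 pair, 38 and 84 in the PC3 pair, a difference of -2.44. MTRNR2L1, a nuclear copy of mitochondrial 16S ribosomal RNA, had 40 and 14 counts in the DU145 pair, 28 and 68 in the PC3 pair, a difference of -2.44. MTRNR2L1 shares sequence with the mitochondrial gene MT-RNR2, whose reads cannot be told apart from it where the sequence is the same.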

How the results depend on the processing

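The counts of genes past 2-fold depended on the minimum depth. Against 202 higher and 206 lower, a minimum of 20 counts gave 523 and 603 of 20554 genes, a minimum of 200 gave 78 and 32 of 13786, and no minimum gave 1863 and 1607 of 27052. Without genes that overlap another in an exon, the numbers were 123 and 133 of 8226, and intervals wholly past 2-fold left 37 and 8. Fewer or more genes tested is part of how these settings are built. Scaling changed less, with 181 and 248 by total counts, which shifts the median of all genes by -0.04 on the log2 scale, 202 and 206 with TMM over the DU145 pair, and 207 and 201 with DESeq2 size factors. Halved counts gave 204 and 198, a prior count of 2 gave 182 and 175, and GC-corrected ratios, an alternative chosen after seeing the data, gave 139 and 161 of 14515 genes. The RCAN3 ratio was from 1.33 to 1.38 under all settings that gave one. Of 340 list medians under an alternative, 17 changed sign, in 9 lists whose median was at most 0.09 from 0. Leaving out overlapping genes moved the interferon effectors from 0.88 to 1.03, integrins and laminins from 0.12 to 0.36, YAP targets from 0.05 to 0.16, and angiogenic factors from 0.30 to 0.50; the sensors fell to 0.19 with no minimum and to 0.26 after GC correction. No paired analysis was possible because each group held 1 library, and for the same reason no library could be left out. Depth limits the lower genes most, since 174 of 206 had under 200 counts.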

Other observations

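Genes of circular RNA formation and clearance were near 1 in DU145. Their median log2 ratio over 30 members was 0.03. Of these, 1 was at least 1.5-fold higher and 0 lower, where 4.7% and 5.06% of all genes were. That gene was EIF2AK2, the kinase PKR that circular RNAs are known to bind, with 3439 counts in the control library and 5035 with circ0003553 (1.57; 1.48 to 1.67), and PC3 gave 1.24 (1.16 to 1.32). ADAR, the editing enzyme, was at 1.23 (1.19 to 1.27).

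Some of the most abundant mRNAs gained the most in CPM at small ratios. MYH9, nonmuscle myosin heavy chain, had 196530 and 239992 counts (1.31; 1.299 to 1.32), and PLEC, the cytolinker plectin, 66099 and 87429 (1.42; 1.40 to 1.44). NCL, nucleolin, was at 1.19 (1.18 to 1.20) and EIF3A, a translation initiation subunit, at 1.25 (1.24 to 1.26). In PC3 these 4 ranged from 0.980 for EIF3A to 1.14 for PLEC. In the lysosome list of 31 genes 1 was at least 1.5-fold higher and 0 lower, where 4.7% and 5.06% of all genes were. It was CTSL, the protease cathepsin L, at 22035 and 34325 counts (1.67; 1.63 to 1.71), against 0.924 (0.868 to 0.984) in PC3. In the glycolysis and hypoxia list of 37, HK2, hexokinase 2, was at 1.61 (1.40 to 1.86) and STC1, a secreted hypoxia target, at 1.73 (1.48 to 2.01), with a list median of 0.02. At 2-fold 1 member was higher and 1 lower, where 1.14% and 1.17% of all genes were, and both had few counts. LOX, lysyl oxidase, was higher at 29 and 60 (2.22; 1.12 to 4.29). ALDOC, aldolase C, was lower at 64 and 23 (0.386; 0.189 to 0.803). Of 10 replication-dependent histone genes with enough counts, 1 was at least 2-fold higher, where 1.14% of all genes were. It was HIST1H1E, on 14 and 42 counts (3.22; 1.32 to 8.97).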
